A study of Zea mays with 74 samples.

Results

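Between teosinte and landraces, 1355 stretches of the genome were deposited as selective sweeps, and 516 of them (38.1%, exact 95% binomial interval 35.5 to 40.7%) overlapped no sweep found between teosinte and modern maize and no sweep found between landraces and modern maize. These 516, out of 4060 sweeps of all 3 comparisons, are called private sweeps below. A sweep was counted as private when not 1 bp of it lay in a sweep of either other comparison. The corresponding share was 32.3% for teosinte vs. modern maize (430 of 1330 sweeps) and 46.0% for landrace vs. modern maize (632 of 1375). The study sequenced the genomes and the bisulfite-treated DNA of 20 teosinte plants (*Zea mays* ssp. *parviglumis*, from near Palmar Chico in Mexico) and of 17 Mexican landraces, with DNA from the third leaf of seedlings raised in a greenhouse, and took modern maize inbred lines from published data. Teosinte therefore stands for 1 locality, whereas the landraces were separate accessions. The deposited tables give regions called between whole populations and no value for a single plant, so regions, not plants, are the units of every test here, and the sequencing depth behind a region was not analysed here.

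Teosinte is the wild ancestor of maize, and landraces are the varieties that farmers selected from it before modern breeding. A selective sweep is a stretch in which a favoured allele carried its linked neighbours to high frequency. XP-CLR finds such stretches by comparing allele frequencies along the genome between populations, and its score is high where they differ more than drift would give. A differentially methylated region (DMR) is a short stretch whose cytosine methylation differs between populations. Plants methylate cytosines followed by G (CG) and also those in CHG and CHH, with H standing for A, C or T. CG methylation is copied at each replication by a maintenance enzyme, CHG methylation is kept by a loop with histone marks, and CHH methylation has to be made anew, largely through small RNAs.

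The private sweeps were shorter and of lower score than the teosinte/landrace sweeps shared with another comparison. Together they covered 64.4 Mb, which was 3.06% of the 2105 Mb of the chromosomes and 19.2% of all teosinte/landrace sweep sequence, although they made up 38.1% of those sweeps. Their median length was 100 kb (quartiles 70 and 150 kb), and the longest was 630 kb. Sweeps also found between teosinte and maize (317) had a median of 185 kb, those also found between landraces and maize (200) a median of 145 kb, and those of all 3 comparisons (322) a median of 285 kb with a maximum of 8740 kb. Of the 44 teosinte/landrace sweeps longer than 1 Mb, 0 were private. Sweeps found in 1 of the other comparisons alone were about as short, with medians of 95 kb for teosinte vs. maize and 110 kb for landrace vs. maize, and 7.21 and 17.7% of them had a score above 100. Their lowest scores were 60.8 and 62.1, against 49.6 in private sweeps. The line of 100 thus does not mean the same in each scan. These lengths were not tested, because a short stretch has less room to overlap another and the rule that picks the private sweeps favours short ones.

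The scores followed the same order. The median XP-CLR was 62.4 in private sweeps (quartiles 54.7 and 75.6), 72.3 and 70.7 in sweeps shared with teosinte vs. maize and with landrace vs. maize, and 81.7 in sweeps of all 3 comparisons. A score above 100 was reached by 39 private sweeps (7.56%) and by 228 of the 839 others (27.2%). Of the 271 sweeps in the lowest class of scores (5 classes of equal size) 51.3% were private, of those in the highest 14.4%. At like length the medians of both kinds lay closer. Among sweeps up to 75 kb they were 59.4 in 173 private and 60.1 in 82 other sweeps, and among sweeps of 155 to 300 kb they were 68.8 in 102 and 71.8 in 268. Only above 300 kb did they part further, at 78.0 in 22 private and 101.2 in 257 other sweeps.

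**Figure D1:**
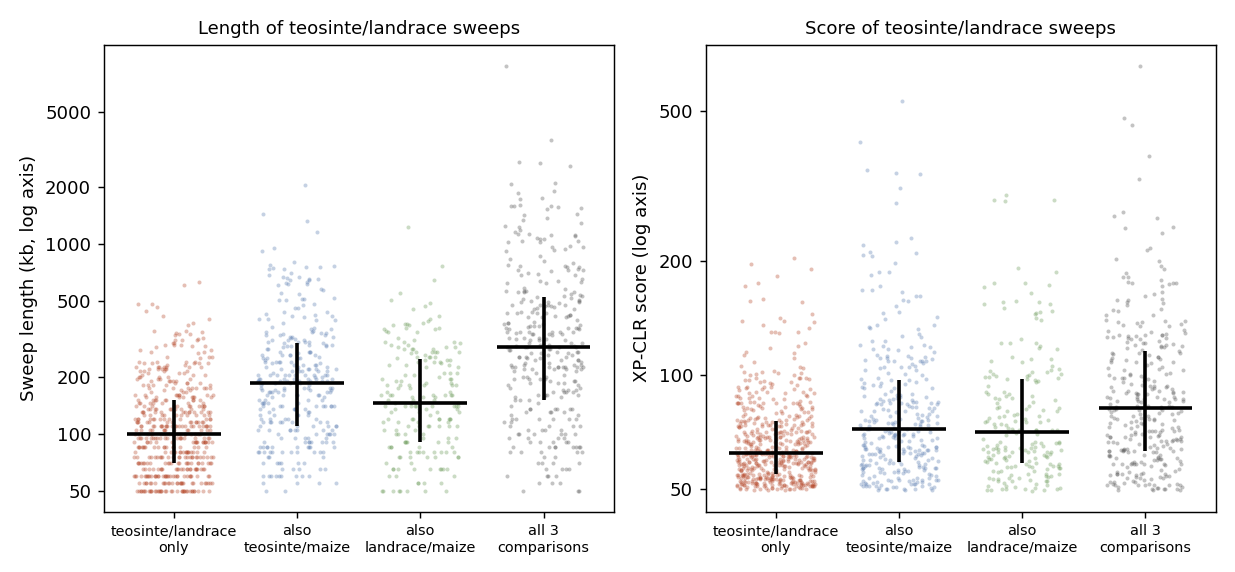
Length in kb (left) and XP-CLR score (right) of the 1355 teosinte/landrace sweeps, both on log axes, by which other comparisons had an overlapping sweep. Each point is 1 sweep, the horizontal bar is the median and the vertical bar spans the quartiles; private sweeps had the lowest medians, 100 kb and 62.4.

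The edge of the rule cut through sweeps of like kind. There were 9 private sweeps that directly abutted a sweep of another comparison, and 33 lay within 20 kb of one. At the other side, 5 of the sweeps that were not private shared only 5 kb with another comparison, and 20 shared at most 20 kb. The median score was 63.3 in the 33 just inside and 64.0 in the 20 just outside, with median lengths of 110 and 130 kb. Over all private sweeps the median gap to the nearest sweep of another comparison was 252.5 kb. It was at most 50 kb for 85 of the 516 and over 1 Mb for 45. The median gap to the nearest other teosinte/landrace sweep was larger, 420 kb.

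All 10 chromosomes carried private sweeps, from 22 on chromosome 9 to 92 on chromosome 1. Per 100 Mb there were 13.8 on chromosome 9, 18.2 on chromosome 8 and at most 31.0 on chromosome 6. On chromosome 6, 50.9% of the teosinte/landrace sweeps were private, and on chromosome 8 it was 28.4%. Along the chromosomes the private sweeps were spread evenly: when each chromosome was cut into 5 equal stretches, they held 101, 105, 106, 106 and 98 of the 516. The other teosinte/landrace sweeps lay more in the middle, with 30.3 and 28.4% in the second and central stretch and 15.1 and 9.54% in the first and last. In the last stretch 55.1% of the sweeps were thus private, in the second 29.2%. Position was not tested, because a stretch crowded with sweeps of other comparisons leaves less room for a private one.

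The strongest private sweeps formed a pair on chromosome 10. The first ran from 60525001 to 60940000 (B73 AGPv4, 415 kb) with an XP-CLR of 204.7, rank 32 among all teosinte/landrace sweeps. The second, 100 kb further on, ran from 61040001 to 61380000 (340 kb) with 196.7, and the nearest sweeps of other comparisons were 1245 and 1760 kb away from them. No DMR of any comparison or context lay in either. The next were on chromosome 9 from 16610001 to 16725000 (191.5), chromosome 1 from 203775001 to 203985000 (183.2), chromosome 7 from 181005001 to 181105000 (175.7), close to the end of that chromosome, and chromosome 4 from 2710001 to 2760000 (172.3). The last of these was only 50 kb long, the shortest length in the table. Below them came chromosome 5 from 146520001 to 146600000 (158.7), chromosome 9 from 43430001 to 43915000 (157.5), chromosome 10 from 20730001 to 20815000 (156.0) and chromosome 8 from 162285001 to 162405000 (144.9). Of these 10 sweeps with the highest scores, only the last held a DMR, 1 CHG DMR between teosinte and maize. Most private sweeps of any score were without a DMR (81.8% of the 516).

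Of the 5 longest private sweeps, 1 held DMRs. On chromosome 1 they ran from 110435001 to 111065000 (630 kb, XP-CLR 102.7), from 87995001 to 88605000 (610 kb, 81.4) and from 104380001 to 104865000 (485 kb, 95.8), and no DMR lay in any of the 3. The sweep of 485 kb on chromosome 9 named above is among the 5 longest too. The last of the 5, on chromosome 7 from 84450001 to 84915000 (465 kb, 59.4), held 3 DMRs at 1 place, a teosinte/landrace CHG DMR and teosinte/maize DMRs in CG and CHG.

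Most private sweeps held no DMR. Of the 516, 20 held at least 1 teosinte/landrace DMR (3.88%, exact 95% binomial interval 2.38 to 5.92%), against 9.82% of all teosinte/landrace sweeps. At least 1 teosinte/maize DMR lay in 87 (16.9%), against 28.7% of all, and at least 1 landrace/maize DMR in 14 (2.71%), against 3.91% of all. A DMR of any kind lay in 94 private sweeps (18.2%), against 30.3% of all, and 422 held none. Among the 94, 45 held a single DMR, 20 held 2, 13 held 3, 11 held 4, 4 held 5 and 1 held 7. The sweeps with a DMR were longer than those without (median 137.5 against 95 kb) and had similar scores (median 65.0 against 62.1). These shares do not allow for length, which the rates below do.

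**Figure D2:**
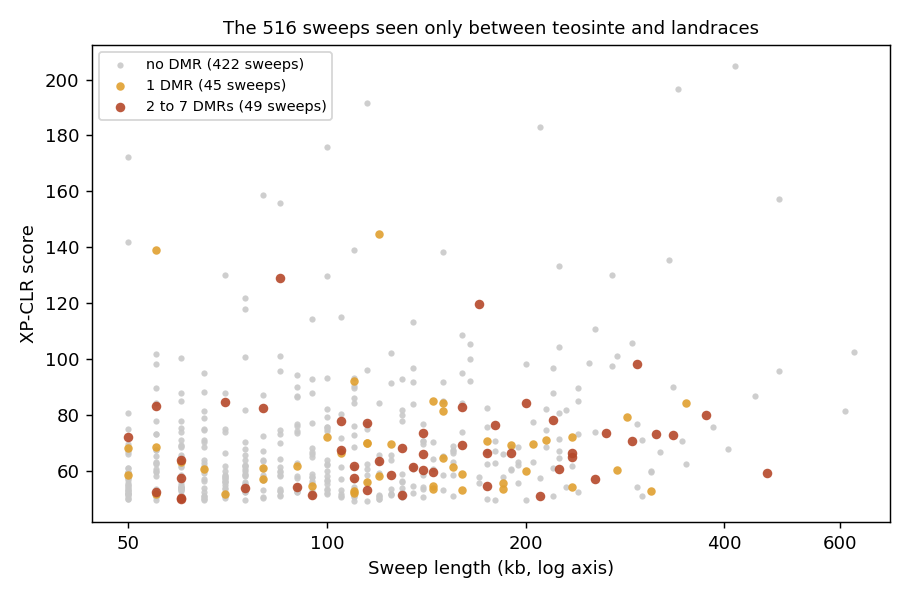
XP-CLR score against length (kb, log axis) of the 516 private sweeps, coloured by the number of DMRs of any comparison and context in them. The 422 sweeps without a DMR span all lengths and include the 9 highest scores.

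In all, the private sweeps held 195 DMRs. Most were between teosinte and maize, with 45 in CG, 75 in CHG and 31 in CHH. Between teosinte and landraces there were 9 in CG, 15 in CHG and 1 in CHH, and between landraces and maize 9 in CG, 9 in CHG and 1 in CHH. Per Mb this was 0.140 teosinte/landrace CG DMRs (exact 95% Poisson interval 0.0639 to 0.265), against 0.40 (0.328 to 0.482) in the other teosinte/landrace sweeps and 0.165 (0.145 to 0.187) in the 1462 Mb that lay in no sweep. For teosinte/landrace CHG DMRs the density was 0.233 per Mb, against 0.566 and 0.209. For teosinte/maize DMRs it was 0.699 in CG, 1.16 in CHG and 0.481 in CHH, against 1.21, 1.74 and 0.966 in other sweeps and 0.608, 0.928 and 0.363 in no sweep. The landrace/maize DMRs stood at 0.140 per Mb in both CG and CHG, against 0.118 and 0.107 in other sweeps and 0.0582 and 0.0602 in no sweep. These intervals cover counting error only. Sweeps found in 1 of the other comparisons alone had densities of the same order, with 0.216 (teosinte vs. maize alone) and 0.141 (landrace vs. maize alone) teosinte/landrace CG DMRs per Mb and 0.708 and 0.586 teosinte/maize CG DMRs per Mb, so the low densities are not shown to be particular to private sweeps.

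**Figure D3:**
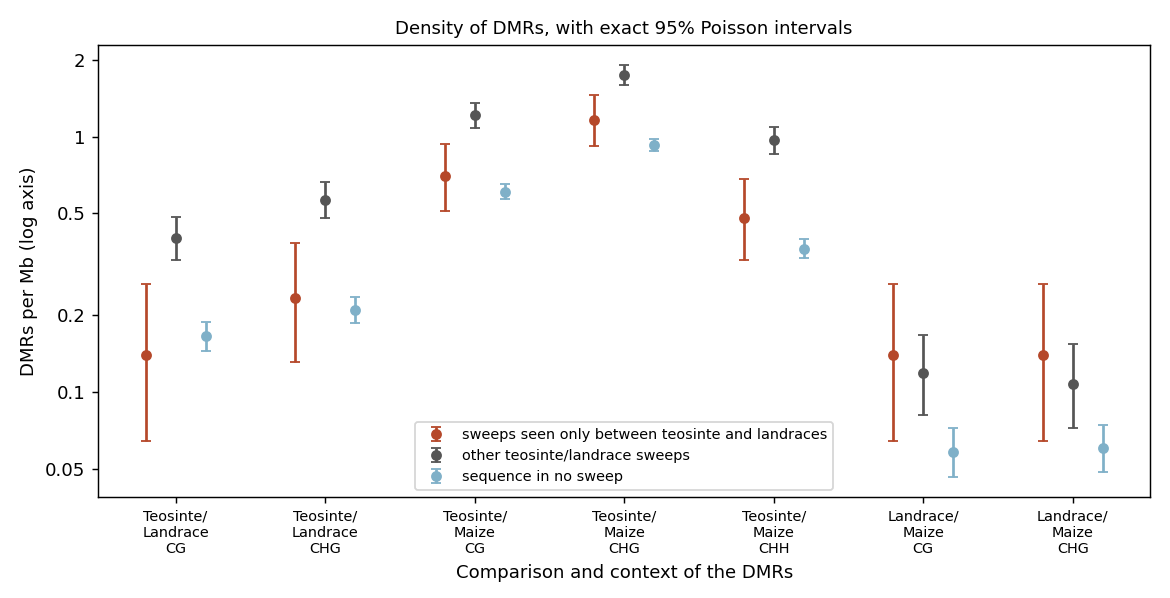
DMRs per Mb (log axis) for the 7 classes of DMRs with enough regions to test, in private sweeps, in the other teosinte/landrace sweeps and in sequence outside all sweeps; bars are exact 95% Poisson intervals. In the 5 teosinte classes the private sweeps lie below the other sweeps, and in the landrace/maize classes the intervals overlap.

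The first question was whether private sweeps hold fewer DMRs per bp than the other teosinte/landrace sweeps. In all 5 testable classes with teosinte they did, taking sweeps of all lengths together. The rate ratio, with sweep length and chromosome in a quasi-Poisson model over the 1355 sweeps, was 0.368 for teosinte/landrace CG DMRs (95% interval 0.184 to 0.737, adjusted p = 0.0113) and 0.437 for CHG (0.260 to 0.733, adjusted p = 0.0106). For teosinte/maize DMRs it was 0.607 in CG (0.419 to 0.879, adjusted p = 0.0145), 0.693 in CHG (0.516 to 0.929, adjusted p = 0.0200) and 0.532 in CHH (0.351 to 0.807, adjusted p = 0.0106). For landrace/maize DMRs no difference passed, with 1.16 in CG (0.545 to 2.47, adjusted p = 0.699) and 1.35 in CHG (0.578 to 3.14, adjusted p = 0.570). The CHG model used the 456 private and 732 other sweeps on chromosomes with such a DMR. Both intervals were wide and include lower and higher rates alike, so a difference was not detectable with so few DMRs.

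These 5 calls did not hold under every treatment of length. When sweeps over 1 Mb were left out, all 5 ratios stayed below 1 but none passed, from 0.385 for teosinte/landrace CG (adjusted p = 0.0697) to 0.785 for teosinte/maize CHG (adjusted p = 0.176). When the rate per bp was allowed to change with length, they ran from 0.468 to 0.834 (adjusted p = 0.343 for each). The teosinte/maize CHG difference also failed without chromosome 4 (0.747, adjusted p = 0.0998) or chromosome 5 (0.721, adjusted p = 0.0578).

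Set against each kind of shared sweep in turn, a comparison chosen after the tables had been seen, the private sweeps differed from the sweeps of all 3 comparisons. There the ratio was 0.289 for teosinte/landrace CG DMRs (adjusted p = 0.00643 over 21 tests), 0.337 for CHG (adjusted p = 0.000698), 0.484 for teosinte/maize CG (adjusted p = 0.00266), 0.612 for CHG (adjusted p = 0.00810) and 0.399 for CHH (adjusted p = 0.000989). Of the 44 teosinte/landrace sweeps over 1 Mb, 39 were of this kind. Length entered these ratios only as an offset, so kind and length of sweep cannot be told apart here. Against the sweeps shared only with teosinte vs. maize the same ratios ran from 0.487 to 0.805, and none passed (adjusted p from 0.220 to 0.554). Against those shared only with landrace vs. maize they ran from 0.898 to 1.62 and did not pass either (adjusted p from 0.504 to 0.964). With 5 teosinte/landrace CG and 9 CHG DMRs in that last kind of sweep, the intervals were wide, for example 0.340 to 2.67 for CG.

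**Figure D4:**
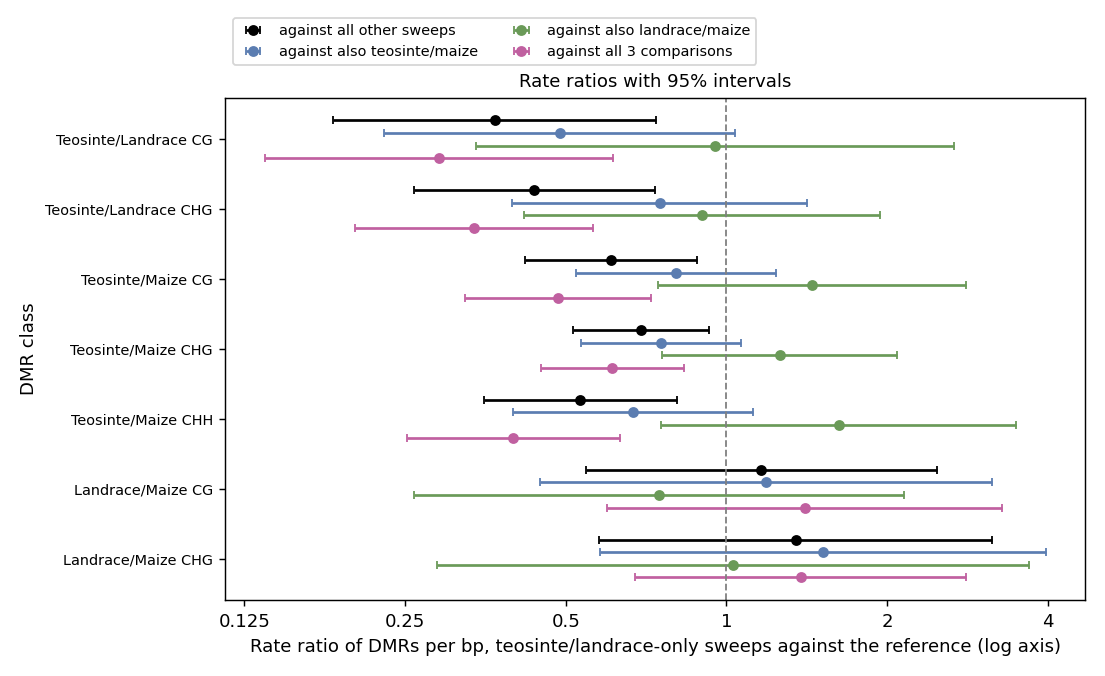
Rate ratio of DMRs per bp (log axis) of private sweeps against all other teosinte/landrace sweeps and against each kind of shared sweep, for 7 classes of DMRs, with 95% intervals from the quasi-Poisson model. Against sweeps of all 3 comparisons the 5 teosinte classes lie between 0.289 and 0.612; against the other kinds their intervals include 1.

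The densities were also read by length of the sweep, as a description. In sweeps over 300 kb, the 257 others held 1.14 teosinte/landrace CG and CHG DMRs per Mb (206 DMRs; exact 95% Poisson interval 0.991 to 1.31), and the 22 private ones 0.347 (3 DMRs; 0.0715 to 1.01). Teosinte/maize DMRs of all contexts stood at 4.35 per Mb in those others and at 1.16 in those private sweeps. In sweeps up to 75 kb the order was the opposite, with 3.11 per Mb in the 173 private sweeps (33 DMRs; 2.14 to 4.37) and 0.585 in the 82 others (3 DMRs; 0.121 to 1.71). For each doubling of length the teosinte/maize CG rate changed 1.16-fold in other sweeps (95% interval 1.06 to 1.27) and 0.657-fold in private sweeps (0.427 to 1.01). A test of the difference between these slopes, chosen after the tables had been seen, passed in none of the 7 classes. Its lowest values were for teosinte/maize CG and CHH, at a raw p of 0.0117 and 0.0169 and an adjusted p of 0.0592 for both.

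**Figure D5:**
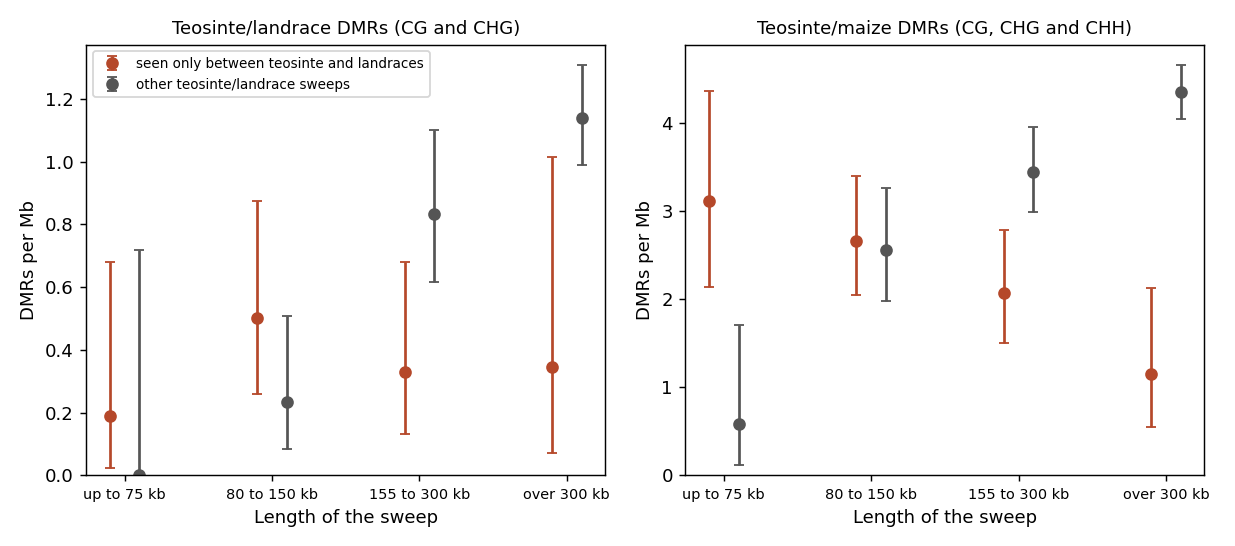
DMRs per Mb in private and other teosinte/landrace sweeps by length of the sweep, for teosinte/landrace DMRs in CG and CHG (left) and teosinte/maize DMRs in all contexts (right), with exact 95% Poisson intervals. In sweeps over 300 kb the other sweeps stand at 1.14 and 4.35 per Mb and the private ones at 0.347 and 1.16. In sweeps up to 75 kb the teosinte/maize density is 3.11 in private and 0.585 in other sweeps. At 80 to 150 kb it is 2.67 and 2.57.

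The second question was whether private sweeps differ from sequence in no sweep. No class passed. The difference was taken on each of the 10 chromosomes, all with equal weight. Its mean can thus differ in sign from the pooled densities above. The p-value came from a two-sided exact sign-flip permutation test, which can go no lower than 0.00195. Teosinte/landrace DMRs had a mean difference of -0.056 per Mb in CG (higher on 3 of 10 chromosomes, adjusted p = 0.440), with a mean of 0.167 outside sweeps. In CHG it was -0.0058 (6 of 10, adjusted p = 0.932), with 0.210 outside. With 9 and 15 such DMRs in private sweeps, a difference may have been missed. Teosinte/maize DMRs differed by 0.063 per Mb in CG (5 of 10, adjusted p = 0.818), 0.247 in CHG (6 of 10, adjusted p = 0.314) and 0.142 in CHH (6 of 10, adjusted p = 0.314). Landrace/maize DMRs differed by 0.076 in CG (7 of 10, adjusted p = 0.314) and 0.084 in CHG (5 of 10, adjusted p = 0.314).

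Most teosinte/landrace DMRs of the private sweeps were also DMRs between teosinte and maize, as were most of those in other sweeps and outside sweeps. Of the 9 in CG, 7 overlapped a teosinte/maize CG DMR, and of the 15 in CHG, 13 overlapped a teosinte/maize CHG DMR. Together this was 20 of 24 (83.3%, exact 95% binomial interval 62.6 to 95.3%), against 184 of 261 (70.5%) in the other teosinte/landrace sweeps. The shares did not differ at the 0.05 level (odds ratio 2.09, two-sided Fisher's exact test, p = 0.239). In sequence outside all sweeps the share was 54.4% in CG (131 of 241) and 53.9% in CHG (165 of 306), which was not tested. DMRs of 1 sweep are not independent, and DMR calls with teosinte share the same teosinte plants.

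In 2 private sweeps the same DMR was called with landraces on either side, between teosinte and landraces and between landraces and maize, and not between teosinte and maize in that context. On chromosome 6 the sweep from 38585001 to 38705000 (120 kb, XP-CLR 63.7) held 1 teosinte/landrace CHH DMR from 38595763 to 38595856, called at the very same positions between landraces and maize. Beside it lay a teosinte/landrace CG DMR from 38595415 to 38595510 and a landrace/maize CHG DMR from 38595280 to 38595705. Further along chromosome 6, in the sweep from 146665001 to 146845000 (76.5), the CG DMR from 146683474 to 146683685 was again called at the same positions in both. On chromosome 1, in the sweep from 170370001 to 170480000 (57.5), a CG DMR was called in all 3 comparisons, from 170397870 to 170398457 between teosinte and landraces. These sweeps were singled out after their values had been seen. A landrace/maize DMR of the same context overlapped 2 of the 9 teosinte/landrace CG DMRs in private sweeps. In other teosinte/landrace sweeps it was 4 of 108, and outside all sweeps 4 of 241. In CHG the counts were 0 of 15, 6 of 153 and 6 of 306. These shares were not tested. Calls with landraces on either side share the same landrace plants, so they are not independent. The paper reports slightly higher methylation in landraces and says that lower sequencing depth may be the reason. Whether depth bears on these DMRs was not tested.

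The sweep richest in DMRs lay near the end of chromosome 5, from 222680001 to 222795000 (115 kb), with an XP-CLR of 53.5, rank 1163 of 1355. It held 7 DMRs. Within 579 bp lay teosinte/landrace DMRs in CG (222686974 to 222687219) and CHG (222686984 to 222687302), teosinte/maize DMRs in CG (222686801 to 222687267) and CHG (222686830 to 222687302) and a teosinte/maize CHH DMR (222687328 to 222687379). The study's gene model places the teosinte/maize CG DMR upstream of the gene Zm00001d018543. A second teosinte/maize CG DMR of the sweep ran from 222712108 to 222712718. Chromatin loops mapped in B73, a modern maize line, pair it with Zm00001d018543 and with its neighbour in number, Zm00001d018544. The last of the 7 was a teosinte/maize CHG DMR from 222684972 to 222685638.

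Of the 4 sweeps with 5 DMRs, that on chromosome 8 from 32500001 to 32585000 had the highest score (129.1). It held no teosinte/landrace DMR. At 1 place it held landrace/maize DMRs in CG (32564412 to 32564636) and CHG (32564410 to 32564750) inside teosinte/maize DMRs of the same contexts, and a further teosinte/maize CHG DMR (32562857 to 32563675) lay before them. On chromosome 4, the sweep from 141140001 to 141315000 (54.6) held its 5 DMRs within 141225537 to 141226490, with teosinte/landrace CG and CHG DMRs that both overlapped teosinte/maize DMRs. On chromosome 7, the sweep from 98995001 to 99070000 (54.2) held teosinte/maize DMRs alone, 2 in CG, 2 in CHG and 1 in CHH. On chromosome 1, the sweep from 280001 to 340000 (57.8) owed 3 of its 5 to DMRs across its first base, of which the teosinte/landrace CG DMR (279904 to 280004) reached only 4 bp into it.

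Private sweeps held 45 of the 1545 teosinte/maize CG DMRs of the genome (2.91%) on 3.06% of its sequence, and some of these are paired with genes in the study's lists. These lists were chosen on the same plants, so they are no independent evidence. Private sweeps held DMRs of 25 listed gene IDs, which are printed without names, since 0 of the 25 matched the gene table at hand. Upstream, inside or downstream of a gene, 20 such DMRs lay in 20 private sweeps, 8 upstream, 5 in the gene and 7 downstream. Counts from the lists, here and below, were not set against the full size of each list. No excess or lack of listed genes in private sweeps is therefore claimed. Here the supplementary tables of exonic and of looped DMRs were told apart by their content, since their titles appear to be exchanged. The list of DMRs in exons named 8 genes with 7 DMRs in 7 private sweeps. The strongest of these sweeps, on chromosome 7 from 18715001 to 18885000 (XP-CLR 119.7), held the CG DMR from 18719895 to 18720857 in Zm00001d019138, and a landrace/maize CG DMR (18719966 to 18720209) lay within it. The others were Zm00001d053067 on chromosome 4 (sweep XP-CLR 51.6), Zm00001d014844 (56.0) and the pair Zm00001d015183 and Zm00001d015184 at 1 DMR (64.9) on chromosome 5, Zm00001d039165 on chromosome 6 (52.8), Zm00001d020204 in the sweep of chromosome 7 with 5 DMRs (54.2), and Zm00001d047153 on chromosome 9 (54.4), whose DMR of 1331 bp was the longest of them.

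One of these genes, Zm00001d039165, was also on the study's list of flowering time candidates. Its CG DMR ran from 171572025 to 171572254 (230 bp) on chromosome 6, in a private sweep from 171555001 to 171610000 (55 kb). The list of exons and the gene model disagree on its place, exonic in one and upstream in the other. Of the 6 genes of the exon list that also have a place in the gene model, 3 disagree in this way, the others being Zm00001d014844 and Zm00001d015183, both downstream by the gene model. The study's loop list holds intergenic DMRs less methylated in maize than in teosinte, with loops mapped in the modern maize line B73. It paired 3 intergenic CG DMRs in private sweeps with 4 genes. Besides the pair on chromosome 5 these were Zm00001d030976, through the DMR from 170397915 to 170398457 on chromosome 1 in the sweep from 170370001 to 170480000, and Zm00001d033024, through that from 247461232 to 247462018 on chromosome 1 in the sweep from 247330001 to 247470000 (73.8). Both of these overlapped a teosinte/landrace CG DMR, and that of Zm00001d030976 was the DMR called in all 3 comparisons. The teosinte/landrace CHG DMR at Zm00001d033024, from 247460987 to 247462283, was 1297 bp long, the longest of the 25 teosinte/landrace DMRs in private sweeps.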

How the data were processed

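Per the labels and the study's methods, DNA was sequenced directly (WGS) and after bisulfite treatment (WGBS) from 20 teosinte and 17 landrace plants. The authors mapped WGS reads to B73 AGPv4 with BWA, removed duplicates with Picard, called SNPs with GATK and scanned pairs of populations with XP-CLR in overlapping windows, each reduced to the same number of SNPs. High windows were merged and the extreme ones kept. The deposited score is the XP-CLR score of each merged sweep and has no fixed range, so it was used only to describe and rank. WGBS reads were mapped to a genome carrying each plant's SNPs, cytosines were extracted with Bismark and DMRs called with metilene. Smaller methylation shifts are left out by the threshold on the mean difference. Library depth enters both calls and was not analysed here. Deposited DMRs carry a position, a context and a comparison only, so direction of change was not used.

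Sweep starts count from 1. DMR starts were read as counting from 0, since no source used here states it. Overlap meant at least 1 bp. The ends of chromosomes were taken as the largest deposited positions. Rates were compared by quasi-Poisson models of DMRs per sweep with log length as offset and chromosome as a factor, for the 7 of 9 classes with at least 20 DMRs in teosinte/landrace sweeps. Differences from sequence in no sweep were tested by exact sign-flip permutation over 10 chromosomes, and shares by Fisher's exact test. Benjamini-Hochberg adjustment was applied within each family of tests, at 0.05. Models were run on simulated counts with a known ratio. For the main rate model the simulated rate per bp did not change with length, so that check says nothing about length. Python 3.11.15, numpy 2.4.6, scipy 1.17.1, pandas 2.3.3, statsmodels 0.14.6 and matplotlib 3.10.9 were used.

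Sweeps were named in the text as the 10 of highest score, the 5 longest, the 5 with most DMRs, and those with a DMR that the study's lists pair with a flowering time gene, a loop or a gene body. The rule that defines private sweeps, the lists and the tests were chosen with earlier results of these data known. Alternatives were another rule of membership, a stricter score, other placement or counting of DMRs, other models, and leaving out long sweeps or each chromosome. Tests against each kind of shared sweep, of slopes with length and between kinds of DMRs were added after the tables had been seen.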

Additional observations from a re-analysis of the deposited data

Results flagged for a closer look

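The make-up of the CG and CHG DMRs differed between private and other teosinte/landrace sweeps, by a test of the difference itself that was added after the tables had been seen. Private sweeps held 24 teosinte/landrace and 18 landrace/maize DMRs, and the other sweeps held 261 and 61. Teosinte/landrace DMRs thus made up 57.1% of these in private and 81.1% in other sweeps (odds ratio 0.312, two-sided Fisher's exact test, adjusted p = 0.00326 over 3 pairs of kinds). Against 120 and 797 teosinte/maize DMRs, the odds ratio of teosinte/landrace DMRs was 0.611 (16.7% against 24.7%, adjusted p = 0.0365). Teosinte/maize against landrace/maize DMRs gave 0.510 (87.0% against 92.9%, adjusted p = 0.0365). DMRs of different comparisons can be the same place, and those of 1 sweep are not independent, so these p-values are too small. Without the sweeps of all 3 comparisons the odds ratios were 0.678, 0.813 and 0.833 (adjusted p = 0.628 for each). No cause was tested.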

How the results depend on the processing

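The number of private sweeps was 438 when no sweep of another comparison was allowed within 50 kb, 677 when membership ended only at a cover of at least 50% of the sweep, and 294 when each comparison was first limited to scores at or above its median. The 5 lower rates of DMRs with teosinte stayed below those of other sweeps under every alternative run, with ratios from 0.232 to 0.942, but did not always pass. Without sweeps over 1 Mb, the ratios for teosinte/landrace CG and CHG and teosinte/maize CG, CHG and CHH were 0.385, 0.521, 0.694, 0.785 and 0.673. With a fitted slope for length they were 0.468, 0.687, 0.760, 0.834 and 0.770. Without the sweeps of all 3 comparisons, an alternative added after seeing the data, they were 0.569, 0.741, 0.942, 0.847 and 0.806. None of these 15 values passed, and the first and last leave fewer sweeps and DMRs. With errors clustered by chromosome the teosinte/landrace CG ratio was 0.350 (adjusted p = 0.0516). Leaving out each chromosome in turn gave 0.278 to 0.449 for teosinte/landrace CG, 0.366 to 0.492 for CHG, 0.509 to 0.667 for teosinte/maize CG, 0.622 to 0.747 for CHG and 0.456 to 0.597 for CHH. The landrace/maize ratios, all differences from sequence in no sweep and the share of DMRs also called with maize passed under no alternative run. The odds ratio of that share ran from 0.666 at the stricter score, the other direction, to 3.83 without chromosome 6.

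For the make-up of DMRs, the odds ratio of teosinte/landrace against landrace/maize DMRs was 0.237 to 0.387 with a chromosome left out, and did not pass without chromosome 2 (0.376, adjusted p = 0.0547) or without the sweeps of all 3 comparisons (0.678). Teosinte/landrace against teosinte/maize gave 0.530 to 0.718 with a chromosome left out (not passing without 2, 3, 7 or 8), 0.590 with the 50 kb margin, 0.629 with DMRs within 10 kb counted as 1, 0.632 without sweeps over 1 Mb and 0.813 without the sweeps of all 3 comparisons. Teosinte/maize against landrace/maize gave 0.443 to 0.609 with a chromosome left out (not passing without 2, 3 or 6), and 0.530, 0.536, 0.524 and 0.833 under those same alternatives. No other cause of a lost call was tested. No paired analysis was possible because the tables hold no value per plant and the labels give the populations no shared replicate numbers. Private sweeps held only 9 to 15 DMRs in each tested teosinte/landrace and landrace/maize class, which limits those values.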
